A study of Homo sapiens with 9 samples.

Results

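Jumonji histone demethylases are described here through 10 of their genes, KDM2B, KDM3A, KDM3B, KDM4A, KDM4B, KDM4C, KDM5B, KDM6B, KDM7A and KDM8, which were taken by symbol from the 60591 symbols of the count table. All 10 passed the filter on low counts that left 15944 symbols for testing. The cells were undifferentiated Caco-2 (uCaco-2), a line from a human colon adenocarcinoma, kept for 24 h with 300 μM cobalt(II) chloride (CoCl2), with 5 μM of an oxyquinoline derivative (OD, "Oxy" in the labels) or in fresh medium as control. The medium of all 3 groups held 0.5% DMSO, and each group had 3 biological replicates. Both chemicals stand in for low oxygen and were given at 1 dose and 1 time to 1 cell line, and what was measured is polyadenylated RNA, not the demethylases or their marks.

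Jumonji C (JmjC) demethylases remove methyl groups from histone lysines by an oxidation that uses molecular oxygen, iron and alpha-ketoglutarate. They share this chemistry with the prolyl hydroxylases that mark hypoxia-inducible factor (HIF) for degradation, which are the targets of the chemicals used here to activate HIF. HIF binds DNA at hypoxia response elements, and genes of several JmjC demethylases, KDM3A and KDM4B in colorectal carcinoma cells among them, are known HIF targets.

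The libraries held 15998136 to 18298190 counts in control cells, 16286502 to 24209427 with CoCl2 and 16387054 to 19623776 with OD. Levels are given as CPM, the counts of a gene relative to the total of its library, after correction by the trimmed mean of M-values (TMM), whose factors were 1.11 to 1.12 in control cells, 0.770 to 0.795 with CoCl2 and at least 1.14 with OD. Scaling by library size alone moved the median change of all genes with CoCl2 against control from -0.05 to -0.55 on the log2 scale, and with OD from -0.01 to 0.03. A change of scaling shifts all genes of a comparison by nearly the same amount. Changes measured against the median gene therefore stay nearly the same by construction (3.43 by either scaling for KDM3A with CoCl2). Without that subtraction KDM3A with CoCl2 stood at 3.38 by TMM and 2.87 by library size alone. The HIF targets PDK1, BNIP3, NDRG1 and ANKRD37 rose with both chemicals, by 2.39 to 3.77 with CoCl2 and 3.03 to 3.98 with OD on the log2 scale. Another listed target, CA9, failed the filter, with 0 to 1 counts in control libraries, 2 to 5 with CoCl2 and 10 to 16 with OD. Of 9 epithelial markers, 8 exceeded 1 CPM in every library and CDX1 was at 0 in all of them. With CoCl2 7 of the 8 were higher than control by adjusted p, as were 6441 of all 15944 tested genes. The median log2 fold change of the 8 was 0.31 and the largest 0.49, no more than the shift of the median gene between the scalings. VIL1 fell by 2.45 on the log2 scale. The 9 markers of immune, stromal and endothelial cells summed to 19.6 to 35.5 CPM, with 3 to 4 of them above 1 CPM in every library of a group (COL1A1 highest, at 9.33 to 22.4 CPM) and PTPRC at no more than 3 counts. PDGFRB fell by 2.31 on the log2 scale with CoCl2. The part of these markers in the results below was not tested.

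Promoter sequences are shown for 5 of the genes because their windows differ in how often they hold ACGTG or GCGTG, the core letters of the hypoxia response element, and because their RNA levels moved differently. Each run is the 250 bases before a start site in the RefSeq table for GRCh38.p14, printed along the strand of the gene, which is the plus strand for all 5. Capitals mark every ACGTG and GCGTG on either strand. CACGTG reads ACGTG on both strands, so that it counts as a pair of overlapping matches at 1 site.
KDM3A, chr2:86441121-86441370: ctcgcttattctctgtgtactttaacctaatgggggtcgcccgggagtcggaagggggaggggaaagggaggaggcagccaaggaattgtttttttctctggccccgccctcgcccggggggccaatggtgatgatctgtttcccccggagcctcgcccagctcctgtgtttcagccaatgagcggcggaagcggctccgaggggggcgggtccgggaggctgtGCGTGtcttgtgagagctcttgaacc
KDM3B, chr5:138352435-138352684: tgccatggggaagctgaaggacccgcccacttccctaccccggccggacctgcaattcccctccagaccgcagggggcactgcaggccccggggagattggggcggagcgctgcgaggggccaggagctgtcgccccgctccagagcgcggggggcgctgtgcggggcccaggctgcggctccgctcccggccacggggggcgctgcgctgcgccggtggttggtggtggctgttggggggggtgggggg
KDM4B, chr19:4968863-4969112: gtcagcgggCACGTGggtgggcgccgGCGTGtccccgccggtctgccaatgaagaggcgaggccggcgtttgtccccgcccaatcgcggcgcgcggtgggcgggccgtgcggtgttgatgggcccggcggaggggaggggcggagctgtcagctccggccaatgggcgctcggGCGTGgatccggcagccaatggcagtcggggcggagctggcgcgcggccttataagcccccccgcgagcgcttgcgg
KDM4C, chr9:6757723-6757972: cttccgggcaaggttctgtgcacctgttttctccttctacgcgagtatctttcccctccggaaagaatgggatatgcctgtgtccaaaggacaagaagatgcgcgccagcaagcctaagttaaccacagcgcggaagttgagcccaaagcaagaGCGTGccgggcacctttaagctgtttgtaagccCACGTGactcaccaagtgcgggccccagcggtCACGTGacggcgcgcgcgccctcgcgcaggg
KDM8, chr16:27203276-27203525: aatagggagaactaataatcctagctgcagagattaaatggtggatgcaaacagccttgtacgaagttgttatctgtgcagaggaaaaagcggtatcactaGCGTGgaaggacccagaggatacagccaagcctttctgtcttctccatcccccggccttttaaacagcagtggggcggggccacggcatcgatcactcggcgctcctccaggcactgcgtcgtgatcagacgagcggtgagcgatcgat

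The KDM3A window held 1 GCGTG at position -26 from the start site, and a second start site of this gene lay downstream of the same match. No ACGTG or GCGTG stood in the KDM3B window. The KDM4B window held 3 separate sites, a CACGTG and 2 GCGTG, and the KDM4C window also held 3, a GCGTG and 2 CACGTG. The KDM8 window held 1 GCGTG farther from the start site, at position -149.

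All 10 genes had an entry in the RefSeq promoter table, whose windows run from 250 bases before to 50 after a start site, and several had more than 1, which made 15 entries. At least 1 of the motifs occurred in 13 of the 15 entries and for 9 of the 10 genes, KDM3B being the exception. Among all 35116 promoter windows of that length, 21.4% held ACGTG, 36.5% held GCGTG and 48.4% held either. These shares are per window and not matched for base content, and the 15 windows of the 10 genes held 53% to 84% G or C. The number of genes counts a match in any window of a gene, and the KDM3A entries share 1 match. The matches describe letters, since binding to DNA was not measured and a link to the RNA levels was not tested.

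Against control cells, KDM3A, KDM4A, KDM5B, KDM6B and KDM7A were called higher with CoCl2 and KDM8 was called lower. A gene is called here where the quasi-likelihood test of edgeR gave a p under 0.05 after Benjamini-Hochberg adjustment over all genes and the log2 fold change exceeded 1 in size. The 5 rises stand beside 19.9% of all tested genes that were called higher with CoCl2, and the 1 fall beside 23.4% that were called lower. By adjusted p alone 9 of the 10 differed, near the 83.2% of all genes. Of the 9, 8 were higher, as were 6441 of all 15944 genes. In the same 9 the control and CoCl2 libraries did not overlap, near the 83.4% of all genes. The median log2 fold change of the 10 genes was 1.05, and that of all tested genes was -0.05.

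With OD, KDM3A, KDM4B and KDM7A rose and KDM8 fell by the same rule. The 3 rises stand beside 9.09% of all genes called higher with OD, and the 1 fall beside 4.16% called lower. By adjusted p alone 8 of the 10 differed, against 65.6% of all genes. Of the 8, 7 were higher, as were 5156 of all 15944 genes. The libraries of those 8 did not overlap with control, against 68.0% of all genes. The median log2 fold change was 0.65 for the 10 genes and -0.01 for all genes. The comparisons of CoCl2 and of OD with control share the 3 control libraries, so that their values stand side by side and are not independent of each other.

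**Figure D1:**
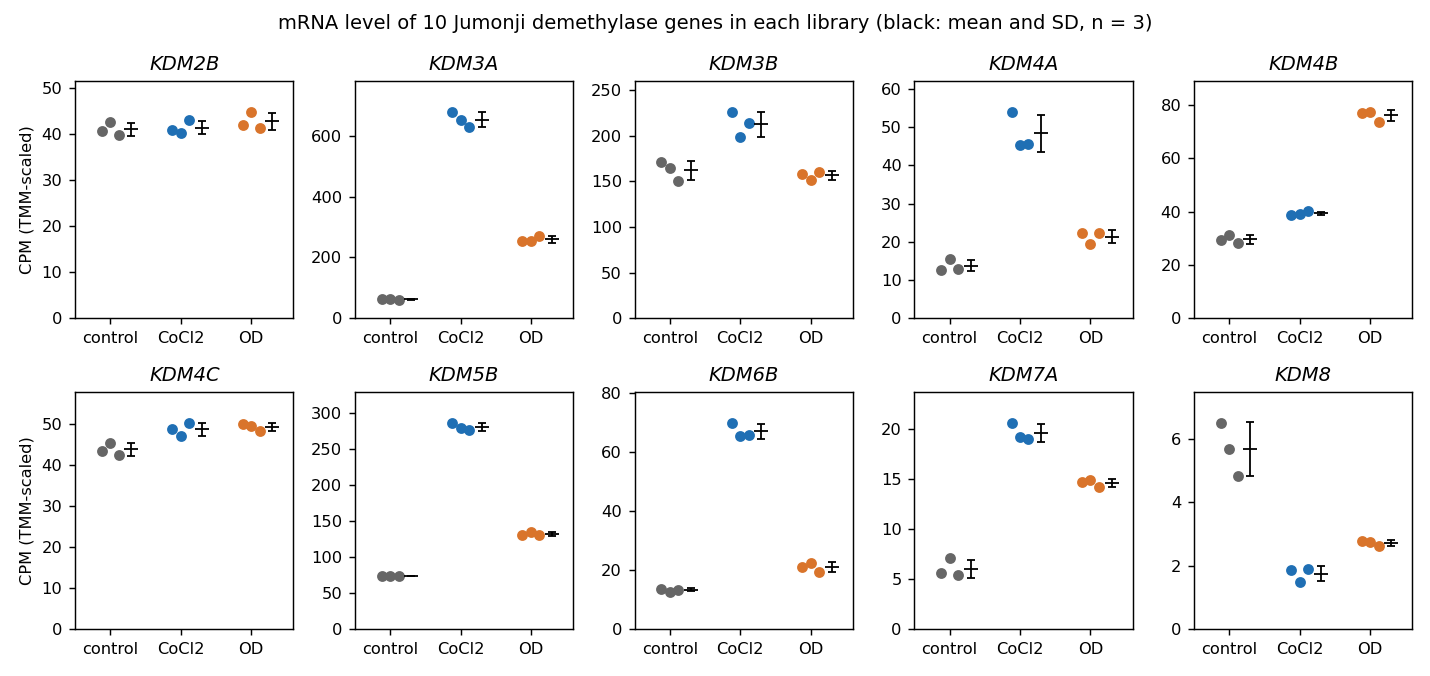
TMM-scaled CPM (linear axes from 0, a separate axis for each gene) of the 10 demethylase genes in the 9 libraries, with points for single libraries and black marks for the mean and SD of 3. The CoCl2 libraries of KDM3A sit at 628 to 678 CPM against 61.2 to 63.9 in control cells, and the OD libraries of KDM4B lie above those of both other groups.

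Among the demethylases of H3K9me1 and H3K9me2, the 2 KDM3 genes behaved differently. KDM3A (GRCh38 chr2:86440647-86492716, plus strand) stood at 63.3, 63.9 and 61.2 CPM in control replicates 1 to 3, at 678, 652 and 628 CPM with CoCl2 and at 254, 253 and 271 CPM with OD. The 3 groups did not overlap, and every OD library lay between the control and the CoCl2 libraries. The rise was 10.4-fold with CoCl2 (log2 fold change 3.38, SE 0.046, adjusted p 2.87e-58) and 4.12-fold with OD (2.04, SE 0.046, adjusted p 2.18e-45). In the order of signed log2 fold changes from the highest down, KDM3A was number 292 of 15944 genes with CoCl2 and number 327 with OD.

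KDM3B (chr5:138352685-138437028, plus strand), its closest relative, started from a higher level. It stood at 171, 165 and 150 CPM in control cells, at 226, 199 and 214 CPM with CoCl2 and at 158, 151 and 160 CPM with OD. With CoCl2 it was higher than control by a log2 fold change of 0.39 (adjusted p 1.32e-11), under the threshold of 1, and at -0.11 when libraries were scaled by size alone. With OD the libraries overlapped those of control, and the log2 fold change was -0.05 with a 95% interval from -0.14 to 0.04.

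The ratio of KDM3A to KDM3B counts within a library needs no scaling between libraries. Control cells had a ratio of 0.388 ± 0.018 (SD, n = 3), CoCl2-treated cells 3.07 ± 0.18 and OD-treated cells 1.66 ± 0.05, so that KDM3B had more reads than KDM3A in control cells and fewer in both treated groups. No library of a group overlapped another group, and the exact two-sided permutation test gave p = 0.1 for each pair of groups, the smallest that 3 against 3 libraries allow.

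The KDM4 genes encode demethylases of trimethylated H3K9 and H3K36, and each of the 3 moved in its own way. KDM4B (chr19:4969113-5153598, plus strand) stood at 29.3, 31.3 and 28.1 CPM in control cells, at 38.7, 39.2 and 40.1 CPM with CoCl2 and at 77.2, 77.4 and 73.8 CPM with OD. This was the only one of the 10 genes whose 3 OD libraries all exceeded both the control and the CoCl2 libraries by more than the spread within groups. It rose 2.57-fold with OD (log2 fold change 1.36, SE 0.056, adjusted p 4.52e-31), while with CoCl2 the log2 fold change was 0.41 (SE 0.062, adjusted p 1.88e-08), or -0.10 when scaled by library size alone.

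KDM4A (chr1:43650149-43705518, plus strand) showed the opposite order of the treatments. It stood at 12.75, 15.4 and 13.01 CPM in control cells, at 54.0, 45.4 and 45.7 CPM with CoCl2 and at 22.4, 19.5 and 22.2 CPM with OD. The rise with CoCl2 was 3.52-fold (log2 fold change 1.81, SE 0.077, adjusted p 6.06e-30), and with OD the log2 fold change of 0.63 (SE 0.084, adjusted p 1.71e-09) stayed under the threshold. In the annotation 48.8% of the exonic bases of KDM4A also belong to other genes, a readthrough gene on the same strand (40.2%) and the antisense KDM4A-AS1, so that its counts are uncertain.

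KDM4C (chr9:6720863-7175648, plus strand) changed little. It stood at 43.5, 45.5 and 42.6 CPM in control cells, at 48.9, 47.2 and 50.45 CPM with CoCl2 and at 50.2, 49.6 and 48.3 CPM with OD. Its log2 fold changes were 0.16 with CoCl2 (adjusted p 0.0103), which turned to -0.35 when scaled by library size alone, and 0.17 with OD (adjusted p 0.0059). The promoter window printed above for KDM4C held as many separate motif sites as that of KDM4B, and a link of sites to levels was not tested.

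Within libraries, KDM4B had 0.673 ± 0.014 times as many counts as KDM4C for control, 0.806 ± 0.022 for CoCl2 and 1.54 ± 0.02 for OD (SD, n = 3). KDM4A to KDM4B was 0.463 ± 0.028 for control, 1.23 ± 0.14 for CoCl2 and 0.281 ± 0.026 for OD. For both ratios the 3 groups did not overlap (exact two-sided permutation p = 0.1 for each pair). Between these 2 genes the balance thus moved towards KDM4A with CoCl2 and towards KDM4B with OD, whatever the scaling.

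**Figure D2:**
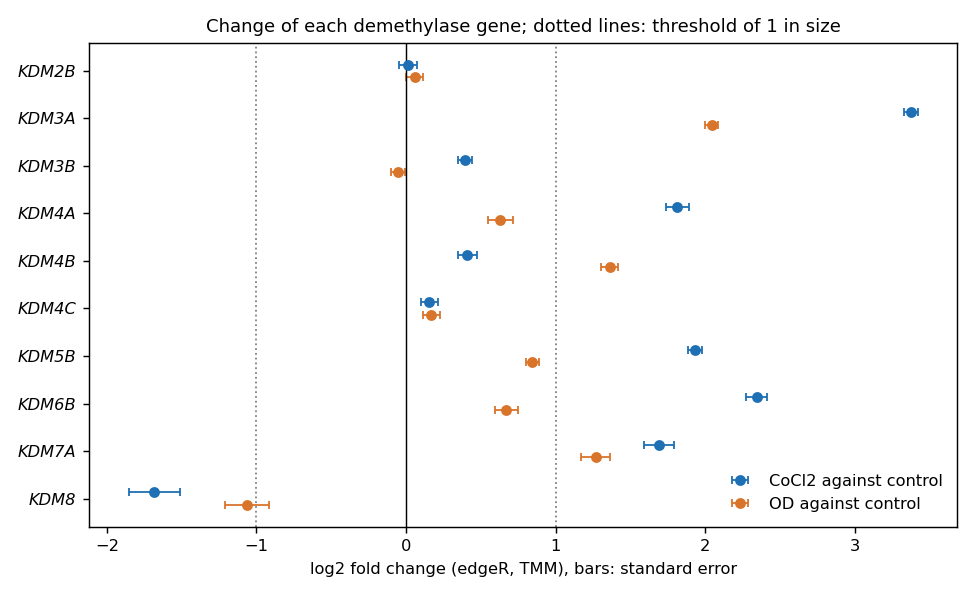
Log2 fold change (horizontal axis) of each of the 10 genes with CoCl2 (blue) and OD (orange) against the shared control libraries, with bars for the SE and dotted lines at the threshold of 1 in size. KDM3A lies farthest to the right for both chemicals, KDM4B lies beyond 1 for OD and under it for CoCl2, and KDM8 lies beyond -1 for both. The CoCl2 points of KDM2B, KDM3B, KDM4B and KDM4C turn negative when libraries are scaled by size alone.

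KDM5B, which removes methyl groups from H3K4, and KDM6B, which acts on trimethylated H3K27, rose with CoCl2. KDM5B (chr1:202724495-202808487, minus strand) stood at 72.95, 73.3 and 73.6 CPM in control cells, at 286, 278 and 275.5 CPM with CoCl2 and at 130, 134.6 and 130.2 CPM with OD. Replicates lay close together in each group, and the groups were far apart. The change was 3.82-fold with CoCl2 (log2 fold change 1.93, SE 0.044, adjusted p 5.93e-46) and 0.84 on the log2 scale with OD (SE 0.045, adjusted p 1.04e-25), which is under the threshold.

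KDM6B (chr17:7834217-7854796, plus strand) stood at 13.7, 12.7 and 13.35 CPM in control cells, at 70.05, 65.5 and 65.9 CPM with CoCl2 and at 21.1, 22.55 and 19.3 CPM with OD. After KDM3A this was the largest rise with CoCl2 among the 10 genes, 5.08-fold (log2 fold change 2.34, SE 0.068, adjusted p 4.23e-40). With OD the log2 fold change was 0.67 (SE 0.077, adjusted p 1.4e-11), with all OD libraries above all control libraries.

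KDM7A, a demethylase of dimethylated H3K9 and H3K27, rose with both chemicals from a low level. The gene (chr7:140084746-140176983, minus strand) stood at 5.595, 7.06 and 5.44 CPM in control cells, at 20.65, 19.2 and 19.0 CPM with CoCl2 and at 14.7, 14.9 and 14.2 CPM with OD. The rise was 3.23-fold with CoCl2 (log2 fold change 1.69, SE 0.098, adjusted p 2.23e-24) and 2.41-fold with OD (1.27, SE 0.099, adjusted p 8.4e-18). With 97 to 144 counts in the control libraries, its SE was the largest among the genes that rose.

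KDM2B and KDM8 have both been described as H3K36 demethylases, and neither rose. KDM2B (chr12:121429096-121581023, minus strand), which also brings a Polycomb complex to CpG islands, stood at 40.7, 42.5 and 39.8 CPM in control cells, at 40.9, 40.2 and 42.95 CPM with CoCl2 and at 42.05, 44.8 and 41.3 CPM with OD. The libraries of the 3 groups overlapped. The log2 fold change was 0.01 with CoCl2 (95% interval -0.10 to 0.13, adjusted p 0.827), with -0.49 when scaled by library size alone, and 0.06 with OD (95% interval -0.06 to 0.17, adjusted p 0.368).

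KDM8 (chr16:27203508-27221768, plus strand), a JmjC hydroxylase whose role as a histone demethylase is debated, was the 1 gene that fell. It stood at 6.51, 5.69 and 4.82 CPM in control cells, at 1.87, 1.47 and 1.89 CPM with CoCl2 and at 2.77, 2.75 and 2.61 CPM with OD. All treated libraries lay below all control libraries, and the OD libraries lay above the CoCl2 libraries. It was 3.21-fold lower with CoCl2 (log2 fold change -1.68, SE 0.173, adjusted p 1.23e-13) and 2.09-fold lower with OD (-1.06, SE 0.147, adjusted p 3.72e-09). The counts behind these values were 86 to 121 in control cells, 19 to 36 with CoCl2 and 49 to 62 with OD, and the SE was the largest among the 10 genes. Without control replicate 1, the highest control library, the log2 fold change with OD was -0.94 and the gene was no longer called. An antisense RNA overlaps 14.5% of its exonic bases.

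Set directly against OD, at doses that differ, CoCl2 gave higher levels of KDM3A, KDM4A, KDM5B and KDM6B past the threshold and no called fall. The 4 called higher stand beside 17.5% of all genes, and the 0 called lower beside 23.8%. By adjusted p alone 8 of the 10 genes differed, 6 higher and 2 lower with CoCl2. Of all 15944 genes 83.5% differed, 6416 higher and 6895 lower. Libraries did not overlap for 8 of the 10, against 83.8% of all genes. At an unadjusted p under 0.05 the 2 lower with CoCl2 were the same as by the adjusted p, KDM4B and KDM8. DESeq2 on all 9 libraries also called 0 of the 10 lower, but the 0 depends on the settings. With library size alone KDM4B (-1.50) and KDM8 (-1.16) passed the threshold as lower with CoCl2. The median log2 difference was 0.44 for the 10 genes and -0.05 for all genes.

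KDM6B differed most between the treatments, 3.19-fold higher with CoCl2 (log2 fold change 1.67, adjusted p 2.89e-34). The log2 difference was 1.33 for KDM3A (adjusted p 5.22e-39), 1.18 for KDM4A (adjusted p 8.2e-23) and 1.09 for KDM5B (adjusted p 9.89e-34). Scaled by library size alone these 3 fell under the threshold, to 0.79, 0.64 and 0.54, while KDM6B kept its call.

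KDM4B was higher with OD than with CoCl2, with a log2 difference of -0.95 (SE 0.055, adjusted p 2.4e-24) that lay just inside the threshold and passed it under 4 of the other settings. KDM8 was lower with CoCl2 than with OD by a log2 difference of -0.62 (SE 0.196, adjusted p 0.00338). KDM7A was higher with CoCl2 by 0.43 (adjusted p 4.93e-06), a difference that turned to -0.12 when scaled by library size alone. KDM3B was higher with CoCl2 by 0.45 (adjusted p 1.82e-13), which turned to -0.10 under that scaling. For KDM2B and KDM4C the 95% intervals of the log2 difference ran from -0.16 to 0.07 and from -0.12 to 0.10.

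Divided by the length of the MANE Select transcript, the CPM of different genes can be set against each other. In control cells KDM3B was the most abundant of the 10, at 24.1 ± 1.56 CPM per kb (SD, n = 3), followed by KDM3A at 13.5 ± 0.30 and KDM4C at 10.1 ± 0.34. KDM5B at 7.89 ± 0.034 and KDM2B at 7.71 ± 0.26 came next and did not differ beyond their spread. KDM7A was the least abundant, at 0.654 ± 0.097 CPM per kb.

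With CoCl2 the order was led by KDM3A, at 139.9 ± 5.37 CPM per kb, with KDM3B at 31.7 ± 2.03 and KDM5B at 30.1 ± 0.59, whose libraries overlapped. KDM4C at 11.3 ± 0.37, KDM4A at 10.8 ± 1.08 and KDM6B at 9.98 ± 0.37 followed. KDM8 was the least abundant, at 0.716 ± 0.097 CPM per kb.

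With OD, KDM3A stood at 55.5 ± 2.21 CPM per kb and KDM3B at 23.3 ± 0.70. KDM5B at 14.2 ± 0.28 and KDM4B at 13.6 ± 0.36 came next, whereas KDM4B had come after KDM5B, KDM2B and KDM4C in control cells. Divided by all annotated exonic bases in place of 1 transcript, KDM3B at 19.9 CPM per kb came before KDM3A at 19.5 with OD, so that their order in that group depends on the length used. With CoCl2 that length left KDM3A first, and put KDM4A (9.33 CPM per kb) and KDM6B (9.08) before KDM4C (4.73).

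Summed over the 10 genes, the per-length level by TMM was 76.6 ± 2.96 CPM per kb (SD, n = 3) for control, 251 ± 8.49 for CoCl2 and 136.5 ± 1.66 for OD. Unlike the shares below, this sum depends on the scaling between libraries. KDM3A made up 17.6% of the sum in control cells (17.4% to 17.9% over the 3 libraries), 55.65% with CoCl2 (54.8% to 56.5%) and 40.65% with OD (40.0% to 41.95%). The share of KDM3B was 31.5%, 12.6% and 17.05% in the same order. KDM4B took 6.89% of the sum for control, 2.795% for CoCl2 and 9.95% for OD. KDM8 took 3.04%, 0.285% and 0.817%. These shares come from within each library and so do not depend on the scaling between libraries, but they depend on the length used. Divided by all exonic bases, the share of KDM3A was 10.7% for control, 41.3% for CoCl2 and 29.1% for OD, and that of KDM3B was 46.8%, 22.8% and 29.7%. Under both lengths KDM3A took a larger and KDM3B a smaller share in every treated library than in any control library.

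**Figure D3:**
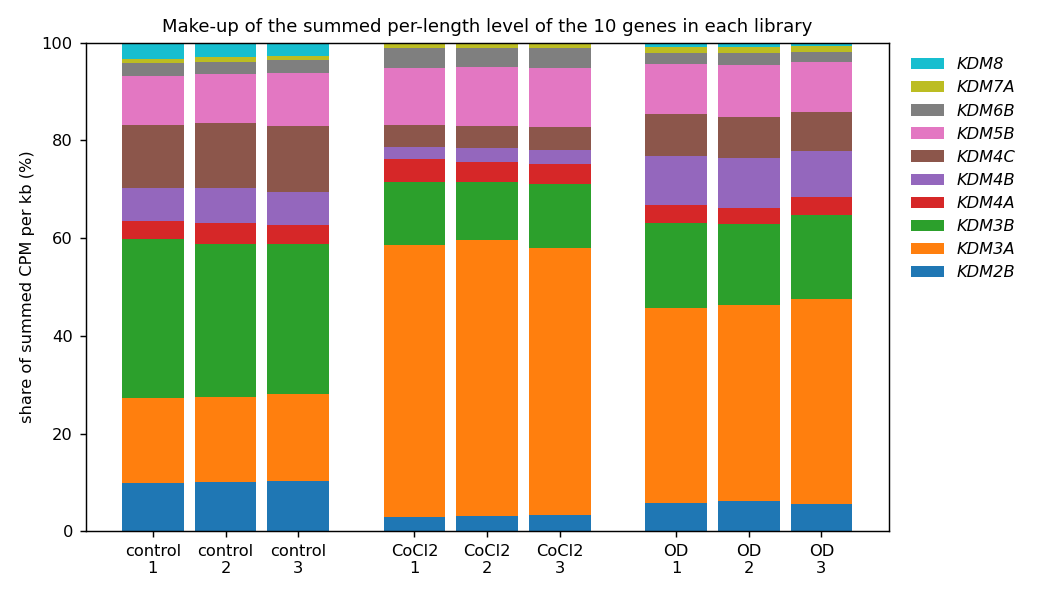
Share (%, vertical axis from 0 to 100) of each gene in the summed CPM per kb (MANE Select transcript lengths) of the 10 demethylase genes, with 1 stacked bar per library. KDM3A grows from 17.4% to 17.9% of the bar in control cells to 54.8% to 56.5% with CoCl2 and 40.0% to 41.95% with OD, and KDM3B shrinks in both treated groups.

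Of 18 other genes with a JmjC domain, 17 could be tested, JMJD7 having had at most 3 counts per library. With CoCl2 7 of them were called higher and 3 lower, beside 19.9% and 23.4% of all genes, and their median log2 fold change was 0.37. The share called lower was near that of all genes. The rises by TMM, from 1.87 to 1.29 on the log2 scale, were those of JMJD6, KDM2A, JMJD1C, JARID2, KDM5C, KDM5A and KDM6A. They include the nearest relatives of KDM2B (KDM2A), of KDM3A and KDM3B (JMJD1C), of KDM5B (KDM5A and KDM5C) and of KDM6B (KDM6A). Library size alone moved the median gene from -0.05 to -0.55, and a shift of that size would take KDM6A (1.29) under the threshold. KDM2A, the H3K36 demethylase related to KDM2B, went from 233.7 ± 7.14 CPM to 835 ± 25.7 CPM (log2 fold change 1.84, adjusted p 9.3e-47), while KDM2B stayed near 41 CPM.

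The 3 JmjC genes that fell with CoCl2 were JMJD4 (log2 fold change -2.25), RIOX2 (-1.90) and RIOX1 (-1.04), each known as a hydroxylase of a translation factor or of ribosomal proteins. Exonic bases of JMJD4 (53.8%) and RIOX2 (27.9%) overlap genes on the other strand.

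With OD 1 of the 17 was called higher and none lower, beside 9.09% and 4.16% of all genes, while 13 had an unadjusted p under 0.05, and DESeq2 on all 9 libraries gave the same numbers of calls. That gene was HR (hairless), which encodes a nuclear receptor corepressor of the KDM3 family. HR had 1, 0 and 2 counts in the control libraries, 1, 0 and 1 with CoCl2 and 44, 48 and 36 with OD, and it passed the filter only through the OD libraries. Against a floor of 3 counts in each library it was at least 12.7-fold higher with OD than in control cells, and at least 10.5-fold higher than with CoCl2. Between the treatments 6 of the 17 were called higher with CoCl2 and 4 lower, beside 17.5% and 23.8% of all genes. With library size alone 1 of the 17 was called higher and 5 lower, where 1351 of all 15944 genes were called higher and 6026 lower. The 4 lower by TMM were HR, JMJD4, RIOX2 and HIF1AN, the asparaginyl hydroxylase that restrains HIF, whose log2 difference was -1.33 (adjusted p 2.23e-33).

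Of 19 methyltransferases that write H3K4, H3K9, H3K27 or H3K36 methylation, CoCl2 raised KMT2C (log2 fold change 1.35) and SETD1A (1.17) and lowered SUV39H2 (-1.78), NSD2 (-1.71), NSD1 (-1.46) and SETDB2 (-1.08). These 2 rises and 4 falls stand beside 19.9% and 23.4% of all genes, so that the falls were near the share of all genes and the rises below it. When scaled by library size alone none of the 19 was called higher and 6 were called lower. Over all 15944 genes that scaling called 1833 higher and 5839 lower. OD gave 0 calls among the 19 by edgeR and by DESeq2, with 11 at an unadjusted p under 0.05. Among the 6 writers of H3K9 methylation, 5 were lower and 1 higher by adjusted p alone with CoCl2 (median of the 6 -0.71). Of all 15944 genes 83.2% passed, 6819 lower and 6441 higher. With OD 5 of the 6 were lower (median -0.50), where 65.6% of all genes passed in either direction and 5310 were lower.

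By TMM, the flavin-dependent demethylases, which need no iron, stayed under the threshold of 1 with both chemicals. KDM1A had log2 fold changes of -0.49 with CoCl2 and -0.60 with OD, and KDM1B of -0.82 and -0.17. Both were lower by adjusted p with CoCl2, and KDM1A but not KDM1B (adjusted p 0.0639) with OD. Library size alone moved the median gene with CoCl2 from -0.05 to -0.55, and a shift of that size would put KDM1B past the threshold. Of 5 genes for the related demethylases of DNA and RNA, ALKBH5 (1.36) and TET2 (1.29) were called higher with CoCl2, beside 19.9% of all genes. By adjusted p alone 2 of the 5 were higher and 2 lower with CoCl2, with a median log2 fold change of -0.05. The shift between scalings named above would take both called rises under the threshold. With OD the log2 fold changes of ALKBH5 and TET2 were 0.78 (adjusted p 3.32e-23) and 0.47 (adjusted p 2.74e-07).

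**Figure D4:**
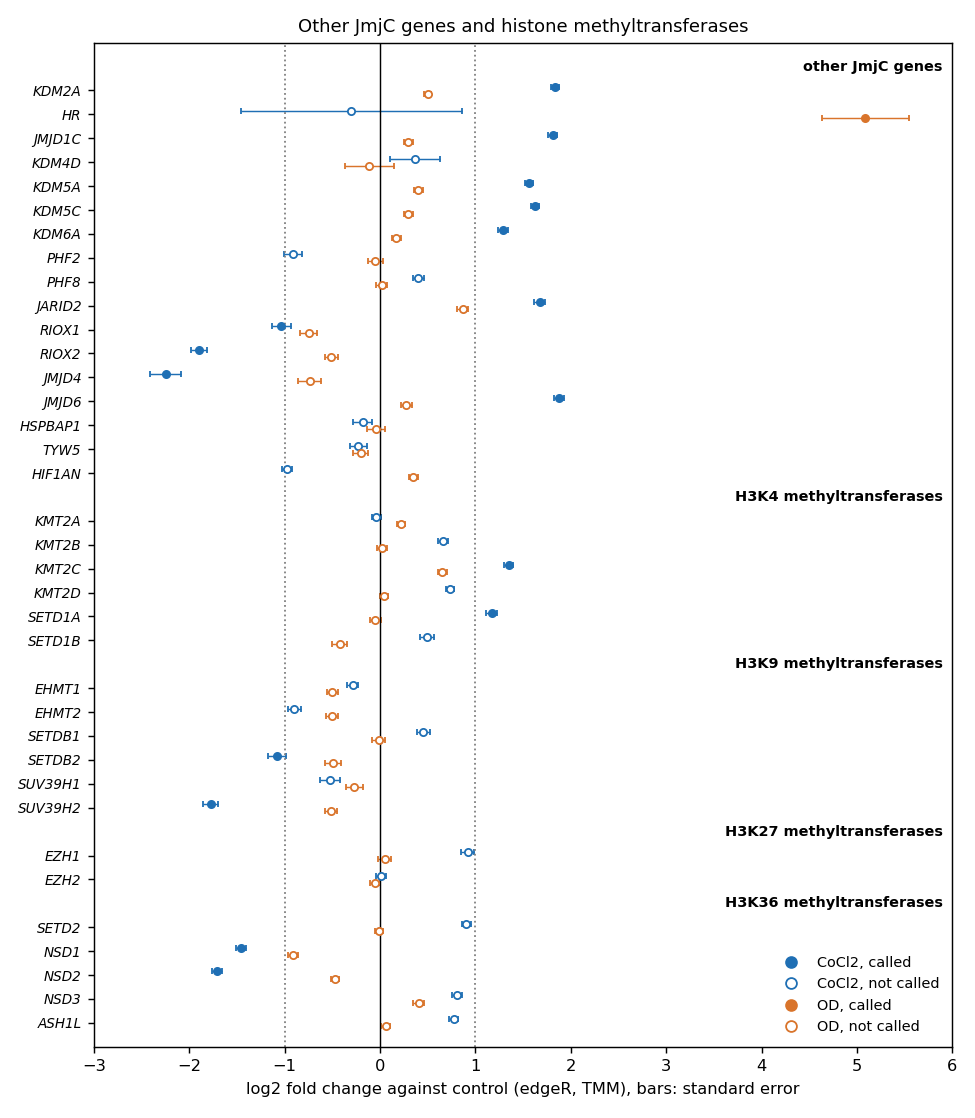
Log2 fold change (horizontal axis, bars for the SE) of the 17 tested JmjC genes outside the 10 and of 19 histone methyltransferases with CoCl2 (blue) and OD (orange) against control, with filled points for called genes and dotted lines at 1 in size. With CoCl2 7 other JmjC genes and 2 methyltransferases lie beyond 1 by TMM. When scaled by library size alone the methyltransferases fall under it, and the shift of the median gene would also take KDM6A under it. HR is the filled point for OD, a fitted value against 0 to 2 counts.

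The genes most like KDM3A and KDM8 in their log2 CPM over the 9 libraries were sought among the 13419 genes that averaged 1 CPM or more. For KDM3A these were KLHL24 (Pearson r 0.9992), ABCC5 (0.9991) and PNRC1 (0.9984), and 121 genes had an r above 0.99. KLHL24, which encodes an adaptor of a ubiquitin ligase, went from 5.05 CPM in control cells to 69.7 CPM with CoCl2 and 23.1 CPM with OD. For KDM8 they were FBXO9 (0.9941), LSM2 (0.9938) and SLC35B1 (0.9929), and 7 genes had an r above 0.99. The 9 points fall into 3 groups of 3, so that these values describe mainly the order and spacing of the group means.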

How the data were processed

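RNA was measured in uCaco-2 cells in 3 groups of 3 libraries. The authors made stranded poly(A) mRNA libraries, sequenced single-end reads of 75 nt, trimmed them with cutadapt 2.10 after FastQC 0.11.9, and mapped them on GRCh38.p13 with STAR 2.7.5b (versions from the submitters' processing notes). The deposited values are raw counts per gene symbol, without normalization. The counting tool, its strand setting and its handling of shared reads are not given in the sources used here, so that genes overlapping others are uncertain. All 9 columns were mapped by name, and 0 were left unused. Replicates differed beyond sampling noise (chi-square per degree of freedom 1.82 to 3.32).

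The counts were scaled by TMM in edgeR 4.0.16 (R 4.3.3), which kept 15944 of 60591 symbols by filterByExpr and fitted a robust quasi-likelihood model over the 9 libraries with 1 mean per group. Calls needed a Benjamini-Hochberg adjusted p under 0.05 over all tested genes and a log2 fold change of more than 1 up or down. Intervals are 95% intervals of the fitted log2 fold changes. On simulated counts for 15418 genes the fit recovered 200 of 200 changed genes with 2 false calls. These numbers are for the 200 genes together and give no value for genes near the threshold of 1. A case with as many changed genes as the 6891 called with CoCl2 against control was not tested. Coordinates, overlaps and transcript lengths came from GENCODE on GRCh38, and promoters from RefSeq on GRCh38.p14. Positions count from the start site as 0 to the first base of a motif. Protein sequences were not used here. Depth limits KDM8 most, with 19 to 36 counts in the CoCl2 libraries, and intervals cover the spread between these libraries only.

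The 10 genes, the gene lists and the tests were chosen with earlier results of these data known. All 10 genes are named. From the other lists, only called genes are named, at most 4 for a list and comparison (writers of each mark being a list) and up to 8 for other JmjC genes, by size of change. KDM6A and RIOX1, beyond those 8, and KDM1A, KDM1B, CA9, CDX1, PTPRC, COL1A1 and JMJD7 are exceptions chosen after their values were seen. The genes most like KDM3A and KDM8 are the 3 with the highest Pearson r each. Alternatives were a fit on the 6 libraries of a comparison, DESeq2 1.42.0 on 9 or 6 libraries, RLE, upper-quartile or library-size scaling, the count filter dropped or set to 10 counts throughout, a replicate block, single replicates left out, glmTreat, and the adjusted p alone. Division by all exonic bases was added after seeing the data.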

Additional observations from a re-analysis of the deposited data

How the results depend on the processing

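Of the log2 fold changes of the 10 genes in 3 comparisons, recomputed under each alternative, 516 values kept direction and side of the threshold, 5 lost a call, 5 gained one and 14 changed sign. Sign changes concern values under the threshold, some of which differed by adjusted p in the main fit. KDM3B with CoCl2 stood there at 0.39 against control (edgeR adjusted p 1.32e-11) and at 0.45 against OD (adjusted p 1.82e-13). With CoCl2 against control, KDM2B (0.01) gave -0.014 with at least 10 counts in every library, -0.051 without a count filter, -0.086 with upper-quartile factors and -0.49 with library size alone, and -0.014 to 0.038 with 1 replicate left out. Library size alone also turned KDM3B to -0.11, KDM4B to -0.10 and KDM4C to -0.35 with CoCl2 against control, and KDM3B to -0.10 and KDM7A to -0.12 with CoCl2 against OD, and in these the shift of the median gene is of the same sign. KDM4C with CoCl2 against OD became 0.031 with RLE factors and ranged from -0.036 to 0.013 with 1 replicate left out. KDM3B with OD against control ranged from -0.10 to 0.0013, the latter without control replicate 1.

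The KDM4B difference between CoCl2 and OD passed the threshold with at least 10 counts in every library (-1.01), library size alone (-1.50), no filter (-1.02) and upper-quartile factors (-1.08). KDM8 passed it with library size alone (-1.16), and KDM5B lost its call with upper-quartile factors (0.96). Calls among the 10 genes numbered 6 with CoCl2 against control under all alternatives but the adjusted p alone (9). With OD they ranged from 3 to 4 with 1 replicate left out and were 3 with glmTreat, and with CoCl2 against OD they ranged from 3 to 5. By adjusted p alone 8 of the 10 were called both with OD and with CoCl2 against OD. Over all genes, the adjusted p alone called 13260 with CoCl2, 10466 with OD and 13311 with CoCl2 against OD, and for OD at least 10 counts in every library left 1134 calls and glmTreat 965. Among other JmjC genes, library size alone left 6 calls with CoCl2 against OD, and at least 10 counts in every library left 0 with OD, where HR was not tested.

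Same-numbered replicates of different groups had correlations of -0.005 to 0.038 between their deviations from the group means. Replicates of different numbers had -0.047 to 0.025. With 3 libraries per group, such small values do not show a pairing by number and cannot exclude one. With the replicate number as a block, the calls among the 10 genes numbered 6, 4 and 4 as without it, and KDM8 with OD stood at -1.07.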
